A study of Mus musculus with 4 samples.

Results

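Haem and iron handling was followed through 10 genes in bulk RNA-seq of sorted mouse alveolar macrophages, the resident phagocytes of the air spaces. The genes were taken by name from the deposited table: 4 act on haem (Hmox1, Blvra, Blvrb and Slc48a1), 4 move iron (Tfrc, Slc11a2, Slc11a1 and Slc40a1) and 2 store it (Fth1 and Ftl1). All 10 were found among its 16755 rows, and all 10 passed the filter on low values. The libraries came from lungs of C57BL6 mice, 2 from wild-type mice (WT) and 2 from mice lacking osteopontin, the secreted glycoprotein encoded by Spp1 (OPNKO). A tag gives bleomycin, which injures the lung, as the treatment of all 4 libraries, the deposited column names give day 14, and a protocol field states that nothing was given. No group without the bleomycin tag was analysed here, and the labels used here give no age, no sex and no form of the Spp1 allele. The genotype tag and the title disagreed for 2 of the 4 samples, and the titles were used. Nothing in the labels says that the 2 libraries of a group are from different mice, and the p-values therefore reflect the variation among these libraries, possibly technical alone.

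The libraries held 35793800 to 44759630 reads in genes. Spp1 followed the titles, with normalized read counts of 545719 and 606517 in WT and 4106 and 3847 in OPNKO. All 15 markers of resident alveolar macrophages were detected. They held 2.07% and 2.11% of all values in WT and less in OPNKO, at 1.33% and 1.63%. Most of that share was 1 gene, Chi3l3, at 634850 and 643790 in WT and 311109 and 411474 in OPNKO. Of the 15 markers, 10 had a log2 fold change of OPNKO over WT above 0. WT replicate 2 stood apart in stromal and blood transcripts: the summed level of 10 fibroblast markers was 5944 there and 576 to 1040 in the other libraries, and that of 5 red cell markers was 444 against 58.5 to 139.

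Macrophages that clear red cells and debris break down haem and either store the released iron or return it to the circulation. Slc48a1 carries haem from phagolysosomes into the cytosol, the inducible haem oxygenase Hmox1 opens the haem ring and frees iron, and biliverdin reductases process the remaining pigment. Iron is then held in ferritin, a shell of heavy (Fth1) and light (Ftl1) chains, or exported by ferroportin (Slc40a1). In iron-poor cells, iron regulatory proteins bind hairpins called iron-responsive elements. A hairpin in a 5′ UTR then blocks translation, whereas hairpins in the 3′ UTR of Tfrc protect the mRNA from decay, so the transcript level of the latter depends on them and that of the former need not.

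Hairpins with the core of such an element were looked for in the principal transcript of each gene (GENCODE M21, GRCm38), because they divide the genes by how iron can act on them. The search asked for CNNNNNCAGTGN, a bulged C, 5 stem bases and a loop of 6 bases (last base not G), followed by 5 bases that pair with the stem, G with T allowed. Only the sense strand was read. A match was present in 0.109% of 13799 5′ UTRs and 0.493% of 13786 3′ UTRs of the tested genes. Of the 10 genes, Fth1, Ftl1 and Slc40a1 had 1 match each in the 5′ UTR, and Tfrc had 4 in the 3′ UTR. The other 6 had none by this pattern, which says only that no stretch of those UTRs met both the letters and the pairing. An element of another form would be missed, so these 6 are not shown to lack one. The matches are given 5′ to 3′ as DNA, with the loop in capitals.
Fth1, 5′ UTR: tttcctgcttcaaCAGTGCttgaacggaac
Ftl1, 5′ UTR: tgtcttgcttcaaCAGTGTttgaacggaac
Slc40a1, 5′ UTR: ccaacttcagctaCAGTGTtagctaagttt
Tfrc, 3′ UTR, match 1: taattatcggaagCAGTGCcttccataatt
Tfrc, 3′ UTR, match 2: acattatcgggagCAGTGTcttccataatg
Tfrc, 3′ UTR, match 3: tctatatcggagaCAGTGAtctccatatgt
Tfrc, 3′ UTR, match 4: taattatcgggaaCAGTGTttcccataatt
The loops begin at base 670 of the Fth1 transcript, base 90 of Ftl1 and base 102 of Slc40a1, and at bases 3327, 3706, 3771 and 3818 of Tfrc.

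Per length of the principal transcript, the 2 ferritin chains stood far above the other 8 genes. In WT, Fth1 had 182364 normalized reads per kb and Ftl1 146063, ranking 9 and 12 of 14199 genes over all 4 libraries. Hmox1 followed at 12289 (rank 253), then Blvra at 4221, Slc48a1 at 3747, Blvrb at 2375 and Slc11a1 at 1621. Slc11a2 (461), Slc40a1 (307) and Tfrc (172) were the lowest. In OPNKO the order of the means was the same, with Hmox1 at 7226 per kb. The order was also the same within each library, but Fth1 and Ftl1 came close in OPNKO replicate 2 (161611 and 160410 per kb), where they differed by less than the spread between replicates. The principal Fth1 transcript is 1494 bases long with a 5′ UTR of 795, and a shorter choice would raise its level per kb.

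**Figure D1:**
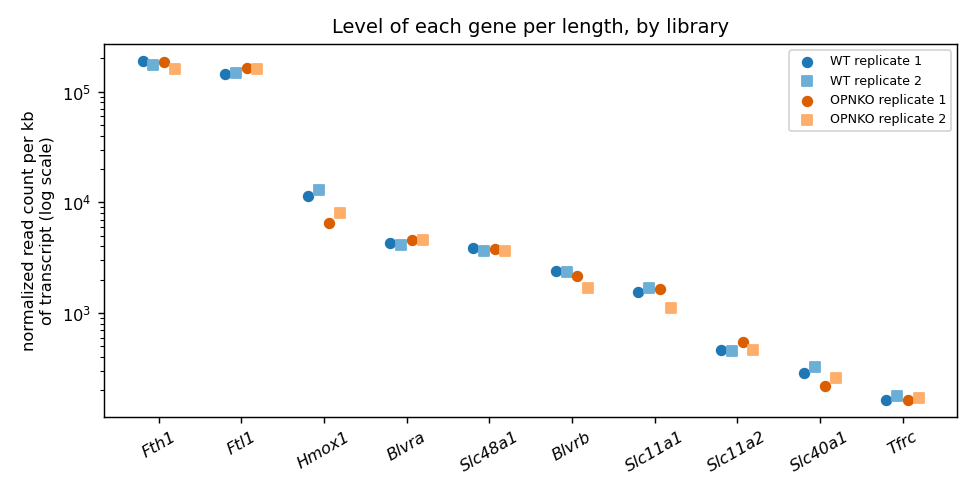
Level of the 10 genes as normalized read count per kb of principal transcript (y axis, log scale) in each of the 4 libraries (points). In the WT means the ferritin chains lie at 182364 and 146063 per kb and Tfrc at 172, and Hmox1 is the gene whose WT and OPNKO points are most clearly apart.

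The comparison of genotypes asked whether loss of osteopontin goes with another level of these genes. Hmox1 was lower in OPNKO, at 58.8% of the WT mean. It was the 1 of the 10 genes that passed a limma adjusted p of 0.05. Of the 10, 0 were called higher by limma, edgeR or DESeq2, and at an unadjusted limma p under 0.05 it was likewise 0 higher and 3 lower. Over all 16431 tested genes, limma called 1.98% lower and 2.33% higher at an adjusted p under 0.05. The unadjusted threshold is much looser: the epithelial marker Scgb1a1, with an unadjusted limma p of 0.0501, had a limma adjusted p of 0.236. The share of all genes under it was not counted here, so the 3 lower cannot be read as more than that share. In the authors' deposited table Hmox1 was also the 1 gene of the 10 past 0.05, against 4.34% of all its rows in either direction. The median log2 fold change was -0.055 over the 10 genes and -0.00056 over all tested genes. In bulk RNA, fewer cells of a type and less RNA per cell cannot be told apart.

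Hmox1 (ENSMUSG00000005413, chromosome 8 from 75093621 to 75100589, plus strand) had normalized read counts of 18107 and 20456 in WT and 10177 and 12497 in OPNKO. Both WT libraries lay above both OPNKO libraries, and the gap between the groups exceeded the spread within either. The means were 19282 ± 1660 in WT and 11337 ± 1641 in OPNKO (SD, n = 2). The log2 fold change of OPNKO over WT, on log2(value + 1), was -0.77 ± 0.11 (SE) with a 95% interval of -1.03 to -0.52 (limma adjusted p = 0.0135). On recovered reads edgeR's quasi-likelihood test gave an adjusted p of 0.0207 and DESeq2 one of 1.34e-09, and it was 4.75e-10 in the authors' deposited table. Without WT replicate 1 the fold change was -0.86 and without WT replicate 2 it was -0.68, and in neither case did it pass (limma adjusted p = 0.172 and 0.228). Of all tested genes, 4 and 11 passed in those fits, against 709 with all 4 libraries.

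**Figure D2:**
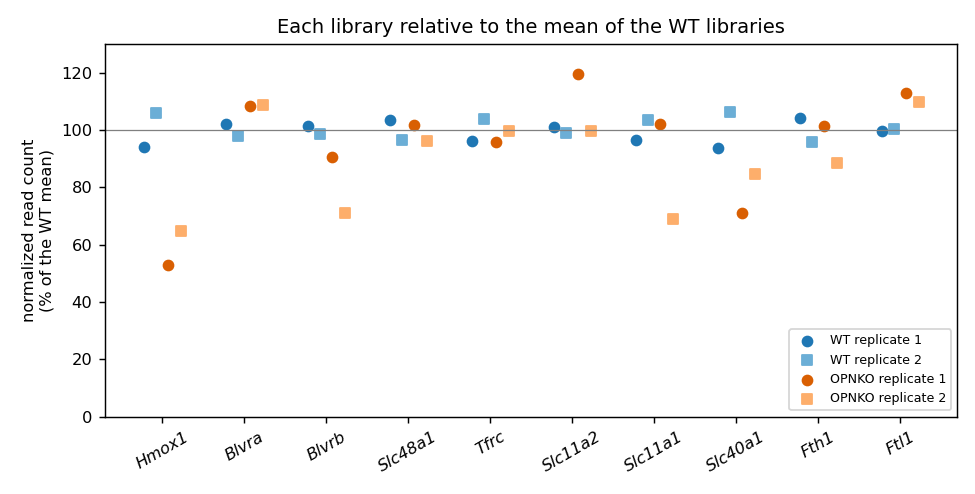
Normalized read count of each gene in each library as a percentage of the WT mean (y axis, from 0); points are libraries. Both OPNKO points of Hmox1 lie well below both WT points, and its OPNKO mean is 58.8% of WT; Slc11a1 is low in OPNKO replicate 2 alone.

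The gene before Hmox1 in the pathway did not separate by genotype. Slc48a1 (ENSMUSG00000081534, chromosome 15 from 97778520 to 97792692, plus strand) read 9844 and 9159 in WT and 9674 and 9145 in OPNKO. Its groups overlapped, and its log2 fold change of -0.014 had a 95% interval of -0.17 to 0.15 (limma adjusted p = 0.937). Exons of Hdac7 on the opposite strand share 29 bases with it.

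The biliverdin reductases came after Hmox1 in the pathway. Blvra (ENSMUSG00000001999, chromosome 2 from 127070665 to 127097084, plus strand) makes bilirubin from biliverdin and read 5008 and 4786 in WT and 5305 and 5324 in OPNKO. Its OPNKO libraries were slightly above the WT ones, with a log2 fold change of 0.12 and an interval of -0.025 to 0.26 (limma adjusted p = 0.320). Blvrb (ENSMUSG00000040466, chromosome 7 from 27447978 to 27466144, plus strand), a flavin and biliverdin reductase, read 2476 and 2408 in WT and 2213 and 1738 in OPNKO. It was lower in both OPNKO libraries, which differed from each other by more than the WT libraries did. Its log2 fold change of -0.32 had an interval of -0.58 to -0.051, and the call was missed after adjustment (limma adjusted p = 0.171). It was -0.49 without OPNKO replicate 1 (limma adjusted p = 0.0377) and -0.14 without OPNKO replicate 2.

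Set against its partners within each library, Hmox1 gave the same picture as its own level. The ratios rest on the same Hmox1 reads and the partners moved little (log2 fold changes 0.12 for Blvra and -0.014 for Slc48a1). They are therefore no separate evidence. The ratio of Hmox1 to Blvra reads was 3.62 and 4.27 in WT and 1.92 and 2.35 in OPNKO, and that of Hmox1 to Slc48a1 was 1.84 and 2.23 against 1.05 and 1.37. The groups were apart in both ratios. An exact two-sided permutation test of 2 against 2 libraries gave p = 0.333 for each of the 6 ratios computed, before and after adjustment, the smallest p it allows.

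Among the 4 iron transporters, 0 passed by limma, edgeR or DESeq2, and 1 (Slc40a1) had an unadjusted limma p under 0.05. Tfrc (ENSMUSG00000022797, chromosome 16 from 32608920 to 32632794, plus strand), the transferrin receptor and the gene with the 3′ UTR hairpins shown above, read 808 and 873 in WT and 805 and 838 in OPNKO. Its groups overlapped and differed little, with a log2 fold change of -0.033 and an interval of -0.25 to 0.18 (limma adjusted p = 0.872). Slc11a2 (ENSMUSG00000023030, chromosome 15 from 100387898 to 100425072, minus strand), which moves ferrous iron out of endosomes, read 1411 and 1381 in WT and 1670 and 1393 in OPNKO. OPNKO replicate 1 stood above the other 3 libraries, and the log2 difference of OPNKO replicate 2 from it was -0.26. The log2 fold change was 0.13 (limma adjusted p = 0.509), and 402 of its exon bases are shared with a gene on the opposite strand, Gm5475.

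Slc11a1 (ENSMUSG00000026177, chromosome 1 from 74375195 to 74386062, plus strand), the phagosomal metal transporter of macrophages also known as Nramp1, read 3623 and 3881 in WT and 3829 and 2594 in OPNKO. It varied more between OPNKO replicates than any other of the 10 genes, with a log2 difference of -0.56 of replicate 2 from replicate 1. The log2 fold change was -0.25 with an interval of -0.63 to 0.13 (limma adjusted p = 0.423). The direction rests on OPNKO replicate 2: without it the fold change was 0.030, and without OPNKO replicate 1 it was -0.53 (limma adjusted p = 0.0323). The complement gene C1qa, a macrophage product, was low in the same library, at 13042 against 19590 in OPNKO replicate 1 and 18530 and 21808 in WT. Its part in the value of Slc11a1 was not tested.

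Slc40a1 (ENSMUSG00000025993, chromosome 1 from 45908068 to 45926523, minus strand), the iron exporter ferroportin, read 970 and 1103 in WT and 735 and 876 in OPNKO. Both OPNKO libraries were below both WT libraries, with means of 1036 ± 94.1 and 806 ± 99.8 (SD, n = 2). The log2 fold change was -0.37 ± 0.12 (SE) with an interval of -0.64 to -0.093, which did not pass after adjustment (limma adjusted p = 0.131). It was -0.24 without OPNKO replicate 1 and -0.49 without OPNKO replicate 2.

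The ferritin chains made up 0.939% and 0.922% of all values in WT and 0.954% and 0.890% in OPNKO. Fth1 (ENSMUSG00000024661, chromosome 19 from 9980598 to 9985098, plus strand), the heavy chain that oxidises iron, read 283853 and 261051 in WT and 276031 and 241446 in OPNKO. These overlapped, with a log2 fold change of -0.076 and an interval of -0.39 to 0.24 (limma adjusted p = 0.792). Ftl1 (ENSMUSG00000050708, chromosome 7 from 45457944 to 45459884, minus strand), the light chain, read 140927 and 141851 in WT and 159488 and 155277 in OPNKO. It was higher in both OPNKO libraries by a small margin, with a log2 fold change of 0.15 and an interval of -0.081 to 0.39 (limma adjusted p = 0.426).

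The heavy to light chain ratio was 2.01 and 1.84 in WT and 1.73 and 1.55 in OPNKO. Both OPNKO values lay below both WT values, but by a gap smaller than the spread within either group. It was 1 of the 6 ratios whose exact permutation p could not go below 0.333. The genome holds close copies of both ferritin genes, and reads shared with them leave the 2 levels uncertain. By name, 4 copies had rows of their own (Fth-ps2, Ftl1-ps1, Ftl1-ps2 and Ftl2-ps), with values of 6.83 to 162. A gene on the strand opposite Ftl1, Gm10252, shares 355 of its exon bases.

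**Figure D3:**
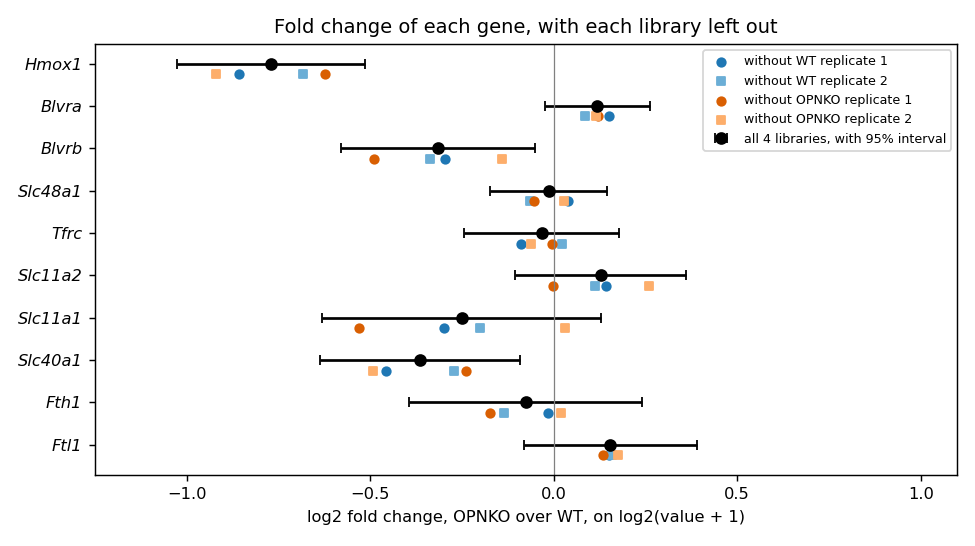
Log2 fold change of OPNKO over WT for the 10 genes (x axis, on log2(value + 1)), with black points and bars for all 4 libraries and their 95% interval and coloured points for the value with 1 library left out. Hmox1 stays between -0.92 and -0.62, while Slc11a1 ranges from -0.53 to 0.030.

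Of the 10 genes, 5 had groups that did not overlap (Hmox1, Slc40a1 and Blvrb lower, Blvra and Ftl1 higher). Over all tested genes 52.7% did so, and the count of 5 is near that background. By the shape of its 4 values, Slc40a1 was the gene of the 10 nearest to Hmox1, with a Euclidean distance of 0.41 between values centred on each gene's log2 mean. It ranked 170 of 10717 genes whose mean value was 100 or more. The 5 nearest genes were Itgae (0.089), Foxred2 (0.11), Fkbp5 (0.12), Ear6 (0.13) and Lgalsl (0.13). Itgae, an integrin gene, read 247 and 270 in WT and 143 and 162 in OPNKO. Fkbp5, which encodes a chaperone of steroid receptors, read 6365 and 7246 in WT and 3363 and 4023 in OPNKO. These distances are over 4 libraries and are descriptions.

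The wider pathway was described by 7 lists with 88 tested genes, of which 2 were higher and 1 lower, against the 2.33% and 1.98% of all genes. Their median log2 fold change was -0.056. Haptoglobin (Hp), which binds free haemoglobin, read 2041 and 2571 in WT and 4524 and 3358 in OPNKO. It rose, by 0.77 ± 0.16 on the log2 scale (SE; limma adjusted p = 0.0426), the 1 call among 13 genes of haem transport and breakdown, whose median was 0.053. The call was not made by edgeR's quasi-likelihood test (adjusted p = 0.0538), among genes of mean value 50 or more (limma adjusted p = 0.0556) or without OPNKO replicate 1 (0.55, limma adjusted p = 0.107). Hp is also a neutrophil granule gene. Of 8 neutrophil markers tested, 1 rose (Cxcr2) and 2 fell (Retnlg and Mmp9), and their summed level was 3198 and 4533 in WT and 3806 and 3969 in OPNKO; their part in the result was not tested.

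Slc25a37, mitoferrin 1, imports iron into mitochondria. It read 2120 and 1912 in WT and 2950 and 2771 in OPNKO, so that both OPNKO libraries were higher. The log2 fold change was 0.51 ± 0.08 (SE; limma adjusted p = 0.0179), the 1 call among 13 genes of mitochondrial iron and iron-sulphur clusters, whose median was 0.024. It did not pass without OPNKO replicate 1 (0.46, limma adjusted p = 0.0642). Of 10 ferroptosis genes, with a median of -0.13, the lipoxygenase gene Alox15 fell, from 147 and 194 in WT to 41.1 and 27.4 in OPNKO (log2 fold change -2.30 ± 0.30, SE; limma adjusted p = 0.0108). Ferroptosis is a form of cell death driven by iron and lipid peroxidation. None of these 3 calls was made without WT replicate 1 or without WT replicate 2, where log2 fold changes were 0.60 and 0.93 for Hp, 0.58 and 0.43 for Slc25a37 and -2.50 and -2.10 for Alox15.

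In the other 4 lists 0 genes passed by limma or edgeR in either direction. By DESeq2 0 to 3 a list passed, and DESeq2 called 1124 genes in all. An unadjusted limma p under 0.05 was met by 2 to 6 a list, a threshold whose share over all genes was not counted. Among 8 genes of haem biosynthesis (median -0.063), the uroporphyrinogen synthase gene Uros differed by 0.33 on the log2 scale without passing (limma adjusted p = 0.176). Of 17 genes of iron uptake, storage and export (median -0.23), Ncoa4, the receptor that delivers ferritin to lysosomes, read 8222 and 8093 in WT and 9624 and 10257 in OPNKO. Its log2 fold change was 0.28 (limma adjusted p = 0.0553), and it passed in the authors' deposited table (adjusted p = 0.0232). The metal importer Slc39a14 had -0.23 (limma adjusted p = 0.0922).

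Of 10 genes of iron sensing and regulation (median -0.18), Spic, a transcription factor induced by haem in iron-recycling macrophages, read 39.5 and 50.7 in WT and 5.71 and 12.4 in OPNKO. Both OPNKO libraries were below both WT libraries, with a fold change on the log2 scale of -2.27 ± 0.50 (SE; limma adjusted p = 0.0540). The hepcidin regulator Hfe had -0.28 (limma adjusted p = 0.0705). The iron regulatory proteins Aco1 (0.081) and Ireb2 (0.093) did not pass (limma adjusted p = 0.530 and 0.432).

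The NRF2 and BACH1 axis holds the main activator and the haem-sensing repressor of Hmox1 with other antioxidant genes. Of its 17 genes (median -0.11), the cystine importer gene Slc7a11 read 4952 and 4211 in WT and 3738 and 3134 in OPNKO. Its log2 fold change was -0.42 (limma adjusted p = 0.0837). The autophagy receptor gene Sqstm1 had 0.22 (limma adjusted p = 0.109). Nfe2l2, which encodes NRF2, had 0.21 (limma adjusted p = 0.122) and Bach1 0.023 (limma adjusted p = 0.891). The constitutive haem oxygenase Hmox2 read 5956 and 5911 in WT and 6143 and 5975 in OPNKO, which differed by 0.030 on the log2 scale (limma adjusted p = 0.817).

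**Figure D4:**
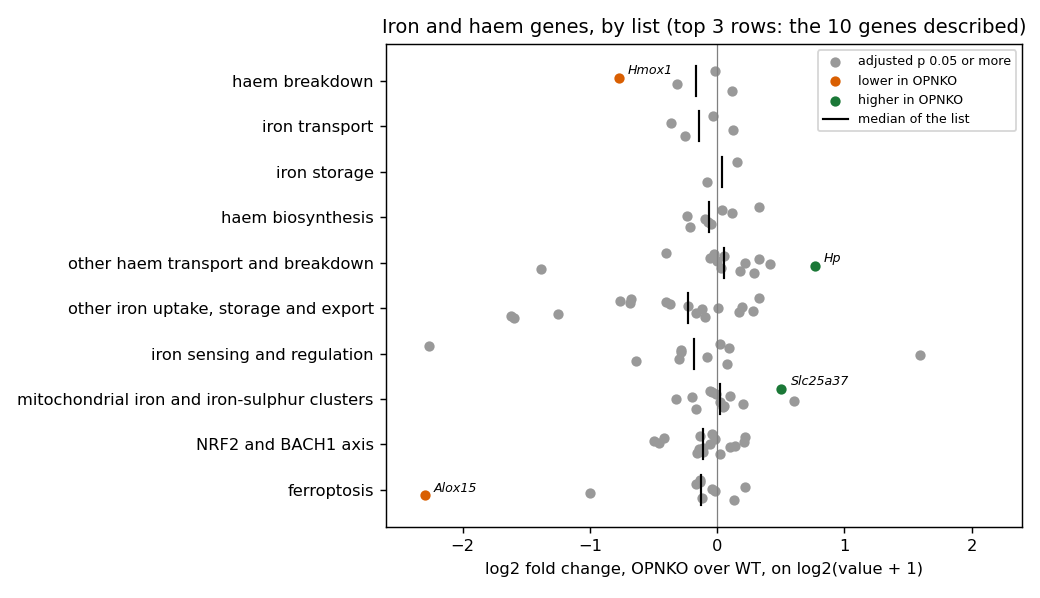
Log2 fold change of OPNKO over WT (x axis) for the 10 genes (top 3 rows) and the 88 tested genes of 7 further lists; each point is a gene, the bar is the list's median, and colour marks a limma adjusted p under 0.05. Hmox1 and Alox15 are lower, Hp and Slc25a37 are higher, and the remaining points are grey.

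Some markers of other macrophages were also lower in OPNKO. Of 12 markers of interstitial and iron-recycling macrophages, 2 fell and 0 rose by limma, against 1.98% and 2.33% of all tested genes. At an unadjusted limma p under 0.05 it was 7 lower and 0 higher, and the share of all genes there was not counted. Of the 12, 11 lay below 0, as did 8223 of all 16431 tested genes, and their median log2 fold change was -1.07. Vcam1, an adhesion molecule of iron-recycling macrophages, read 660 and 817 in WT and 159 and 127 in OPNKO (-2.36 on the log2 scale, limma adjusted p = 0.00145). Cd5l, a secreted protein of such macrophages, read 365 and 205 against 77.6 and 34.9 (-2.37, limma adjusted p = 0.0273). Cd163, the scavenger receptor for haemoglobin bound to haptoglobin, read 94.3 and 96.6 against 57.1 and 22.4 (limma adjusted p = 0.131). Neither Vcam1 nor Cd5l passed without WT replicate 1 (-2.52 and -1.96, limma adjusted p = 0.153 and 0.267) or without WT replicate 2 (-2.21 and -2.79, limma adjusted p = 0.103 and 0.207). Spic and Cd163 stand in this list and in those of the pathway above. The summed level of the list, most of it Mrc1, overlapped between groups, at 133486 and 144585 in WT and 134975 and 123254 in OPNKO, and no marker of it was at 0 in all libraries. The part of such cells in the level of Hmox1 was not tested.

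**Figure D5:**
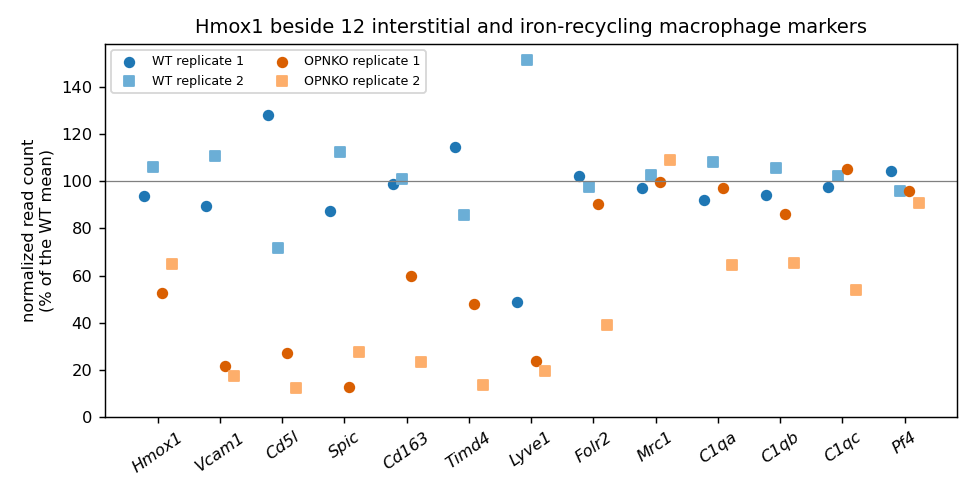
Normalized read count of Hmox1 and of 12 markers of interstitial and iron-recycling macrophages in each library, as a percentage of the WT mean (y axis, from 0). In the OPNKO mean Vcam1 lies at 19.3% of WT, Cd5l at 19.7% and Spic at 20.1%, Hmox1 at 58.8% and Mrc1 at 104%. Spic rests on 5 and 10 reads in OPNKO.

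Of 15 monocyte markers 4 fell and 0 rose by limma (7 and 0 at an unadjusted limma p under 0.05). Limma called 1.98% of all tested genes lower and 2.33% higher, the background for each marker list here. The share of all genes under the unadjusted threshold was not counted, so counts at it have no such background here. The summed levels of the monocyte markers were 480595 to 495638 in WT and 435855 to 506322 in OPNKO. Most of that sum was Fn1, with a log2 fold change of -0.0044, while the OPNKO means of the 4 that fell stood, relative to WT, at 45.5% (Ccr2), 58.4% (Ace), 40.3% (Vcan) and 42.4% (Emr4). Of 15 resident alveolar macrophage markers 4 rose and 2 fell, and their summed level was lower in both OPNKO libraries (936315 and 923725 in WT, 608053 and 724439 in OPNKO). Most of that sum was Chi3l3, at 634850 and 643790 in WT and 311109 and 411474 in OPNKO (limma adjusted p = 0.0528). Chi3l3 passed by edgeR's quasi-likelihood test (adjusted p = 0.0250), by DESeq2 (adjusted p = 3.71e-10) and in the authors' deposited table (adjusted p = 0.00202). The part of these cell types in the level of Hmox1 was not tested. Of 11 dendritic cell markers 2 fell (3164 and 4793 in WT, 2066 and 1989 in OPNKO). Lymphocyte genes differed: 8 of 13 for T and NK cells rose (2911 and 3565 in WT, 9496 and 15176 in OPNKO), and of 9 B and plasma cell markers 1 rose and 3 fell (21017 and 24371 against 14048 and 13065). Of 10 fibroblast and 5 red cell markers 0 passed by limma, edgeR or DESeq2 (3 and 0 at an unadjusted limma p under 0.05). In WT replicate 2 all of these 10 and 5 genes exceeded their values in WT replicate 1. Of 10 epithelial markers 1 fell, Cdh1, which made up most of their sum (5059 and 7103 in WT, 4282 and 4654 in OPNKO). In that list 7 fold changes lay below 0 and 3 above. Of 7 endothelial markers 1 rose, Vwf, which made up most of their sum (5079 and 6708 in WT, 6970 and 6510 in OPNKO). The other 6 endothelial markers lay below 0 without passing. The red cell genes measured included Hba-a1, at 9.87 and 38.1 in WT against 20.5 and 4.98 in OPNKO. The part of red cell and fibroblast RNA in the level of Hmox1 was not tested.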

How the data were processed

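The authors deposited 1 table of 16755 genes. Each library has a column of normalized values there, called a signal here, per the file headers. Beside them stand the authors' log2 fold change with its error, the authors' Wald score, and the authors' p-value before and after adjustment. All deposited values (100.0%) were whole multiples of what 1 read is worth in that library, within 0.001 reads, so they are reads divided by a factor per library, and whole reads were recovered. The submitters' processing notes name HTSeq 0.6.1p1, STAR 2.4.1d, edgeR and Trim Galore 0.4.0, with no role. The build, annotation and strand setting behind the counting were not given in the sources used here. Per the labels, 10 stranded libraries were pooled. The table has 2 columns without a label that were not used, and 1 row without a symbol.

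OPNKO was compared with WT by limma 3.58.1 with a trend (R 4.3.3), on log2(value + 1) of 16431 genes of mean value 1 or more; the added 1 shrinks fold changes of low genes. P-values were adjusted by Benjamini-Hochberg over all of them and called under 0.05. As alternatives, edgeR 4.0.16 and DESeq2 1.42.0 on recovered reads, other scalings, filters, pseudocounts, a replicate block and each library left out were run. The limma script was tested on simulated data. Positions, lengths and transcripts came from GENCODE M21 (GRCm38) by Ensembl identifier (16542 matched). The genes and lists were chosen with earlier results of these data known. Named genes of the 7 lists were those past the threshold or, with none, the 2 with the smallest p (1 of these is not reported here); Aco1, Ireb2, Nfe2l2, Bach1, Hmox2, Hamp, Cp, Hif1a, C1qa and the markers were named after their values were seen. Figures used matplotlib 3.10.9.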

Additional observations from a re-analysis of the deposited data

How the results depend on the processing

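Hmox1 kept its direction under all 14 alternatives and its call under 12; its log2 fold change ranged from -0.92 to -0.62 when 1 library was left out. The count of the 10 genes called lower was 1 and became 3 with the replicate block (Hmox1, Slc40a1 at a limma adjusted p of 0.0321 and Blvrb at 0.0430) and 0 to 3 with 1 library left out. Calls among all genes numbered 709, and 1124 by DESeq2, 1566 with the block and 4 to 545 with 1 library left out (4 without WT replicate 1, 11 without WT replicate 2). Those of the 7 lists numbered 3, and 7 with upper-quartile scaling, 12 by DESeq2, 10 with the block and 0 to 3 with 1 library left out. The cause was not tested. Leaving out 1 library turned the sign of genes that passed in no fit with all 4 libraries, with ranges of -0.53 to 0.030 for Slc11a1, -0.0030 to 0.26 for Slc11a2, -0.089 to 0.022 for Tfrc, -0.17 to 0.020 for Fth1 and -0.066 to 0.038 for Slc48a1. Same-numbered libraries share only a number (correlation of their deviations -0.031 over 11624 genes), so the labels give the block no basis. With 1 library left out, the lone sample of that group is assumed to vary like the other group. With 2 libraries a group, intervals cover the spread between these libraries only. Each of the 10 genes had at least 644 reads in each library. Hamp, with 6 to 19, and Spic, with 36 and 52 in WT and 5 and 10 in OPNKO, are limited by depth. Cd163 had 18 reads in OPNKO replicate 2.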

Other observations

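Hepcidin (Hamp), the hormone that removes ferroportin from the cell surface, was barely read, with 6 reads in each WT library and 19 and 16 in OPNKO (log2 fold change 1.60 ± 0.50, SE; limma adjusted p = 0.129). Ceruloplasmin (Cp), the ferroxidase that works with ferroportin, read 94.3 and 205 in WT and 68.5 and 29.9 in OPNKO (-1.60, limma adjusted p = 0.120), and it passed in the authors' deposited table (adjusted p = 0.0256). The same table called Slc7a11 (adjusted p = 0.0371) and the hypoxia factor gene Hif1a (adjusted p = 0.0402), which limma did not (adjusted p = 0.0837 and 0.0745).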
